A study of Mus musculus with 78 samples.

Results

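The centrosomal microcephaly genes are 10 mouse genes, Aspm, Cdk5rap2, Cenpj, Mcph1, Wdr62, Cep152, Stil, Cep63, Cep135 and Plk4, whose human counterparts are mutated in inherited small brain size. They were followed on 78 Affymetrix arrays of mouse brain RNA, in 26 groups of 3 arrays that the labels call biological replicates. All 10 were on the array, out of 18194 genes with a probe set that names 1 gene. Their 21 probe sets were reduced to 1 per gene, the one with the highest mean over all arrays, and 4 of the genes had only 1. Values are log2 RMA values, a log2 intensity scale on which probe sets of different genes cannot be ranked against each other, so only differences within a gene are compared below.

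The ages were embryonic day 14 (E14), birth (P0) and day 14 after birth (P14). The E14 mutants were Ndel1 ko/+, Ndel1 ko/cko, Dcx ko/Y, Lis1 ko/+, Lis1 ko/cko and 14-3-3 epsilon ko/ko, beside 2 wild types of mixed background, A and B. The P0 mutants were Dcx ko/Y and both genotypes each of Lis1 and Ndel1 (ko/+ and ko/cko) beside mixed A and mixed B wild types, and inbred Ndel1 ko/+ and inbred 14-3-3 epsilon ko/ko beside an inbred wild type. The P14 mutants were Lis1 ko/+, Lis1 ko/cko, Ndel1 ko/+, Ndel1 ko/cko and a further Ndel1 ko/+ group labelled as mixed background, beside mixed A, mixed B and inbred wild types. The titles of the inbred sets read WT129s6, wt129s6, nudel129s6 and epsilon129s6. The allele cko is a conditional one, and the labels used here name neither a Cre line nor its promoter. They also do not say which mixed wild type belongs to which mutant, so each such mutant was set against both, and a gene was called only where both differences passed in the same direction.

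The centrosome is the cell's main microtubule-organising centre, made of a pair of centrioles within pericentriolar material, and it forms the poles of the mitotic spindle. In the embryonic cortex, radial glia divide at the ventricle, and the centrosome of these progenitors sets the spindle's orientation and anchors the primary cilium. Loss of the genes followed here disturbs centriole number, spindle poles or mitotic timing in neural progenitors, which then divide fewer times or die. LIS1, NDEL1, DCX and 14-3-3 epsilon, the proteins altered in the mutants, act with dynein and microtubules in nuclear movement and neuronal migration, and LIS1 and NDEL1 are themselves found at the centrosome.

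Several libraries went against their labels at the targeted gene. Ywhae, the 14-3-3 epsilon gene, stood at 12.68, 12.92 and 9.97 in the 3 E14 libraries labelled 14-3-3 epsilon ko/ko, against means of 13.06 and 12.99 in mixed A and mixed B wild types, so the libraries labelled replicates 1 and 2 keep its transcript. Ndel1 averaged 10.06 ± 0.17 in the P0 inbred library set labelled Ndel1 ko/+, against 9.91 ± 0.09 in inbred wild type (SD, n = 3 each), and 10.55 ± 0.04 in the P14 set labelled Ndel1 ko/+ mixed background, against 10.39 ± 0.06 and 10.32 ± 0.03 in mixed A and mixed B wild types. In the other Ndel1 sets its mean lay below both mixed wild types, most narrowly in E14 Ndel1 ko/cko, with 9.82 ± 0.04 against 9.90 ± 0.06 and 9.91 ± 0.02. Dcx stood between 4.16 and 4.87 in the 6 Dcx ko/Y libraries, against at least 11.53 in the mixed wild types of those ages. Pafah1b1, the Lis1 gene, averaged 10.01 ± 0.15 in P0 Lis1 ko/+ and 10.08 ± 0.06 in P0 Lis1 ko/cko, against 10.51 ± 0.06 in mixed A but 9.95 ± 0.15 in mixed B wild type. At the other ages it lay below both, with 10.07 and 9.84 in E14 Lis1 ko/+ and ko/cko, against 10.38 and 10.43 in mixed A and mixed B, and with 10.21 and 10.36 at P14, against 10.85 and 10.48.

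The members lie on 9 chromosomes and are described in the GRCm38.p6 assembly. Of the genes for centriole duplication, Plk4 (the kinase that starts duplication) lies at chr3:40799951-40816883, Stil (its substrate, a scaffold of the new centriole) at chr4:115000108-115043203 and Cenpj (which controls centriole length and binds tubulin) at chr14:56526761-56575489. Cep152 and Cep63, which form a complex that brings Plk4 to the mother centriole, lie at chr2:125549864-125625174 and chr9:102586578-102626564, and Cep135, a centriole wall protein, at chr5:76588653-76646466. The spindle pole genes Aspm and Wdr62 lie at chr1:139454188-139494088 and chr7:30240138-30281908. Cdk5rap2, which tethers gamma-tubulin complexes in the pericentriolar material, lies at chr4:70216855-70410435, and Mcph1, a regulator of chromosome condensation and the DNA damage response, at chr8:18595116-18808089.

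Because Aspm, Plk4, Stil and Cenpj moved together with age, the 250 bases before the annotated starts were searched on both strands for motifs that regulate cell cycle genes. RefSeq promoters of GRCm38.p6 matched 9 of the 10 members. The motifs were the CCAAT box (CCAAT), the cell cycle homology region (TTTGAA) and an E2F-like set (TTCGCGC or TTCCCGC or TTGGCGC or TTGCCGC), and no match overlapped another. A CCAAT box stood in the windows of 5 members, with 3 matches each in Aspm, Wdr62, Cep152 and Stil and 1 in Cep135, and in 37.5% of all 27025 genes. An E2F-like match stood in 1 window each of Wdr62, Cep152, Cep63 and Plk4, and in 9.01% of all genes. The letters TTTGAA were in none of the members' windows, and in 18.3% of all genes. The windows of Stil and Plk4, which fell with age, and of Cdk5rap2, which changed less, are shown 5′ to 3′ on the gene's strand, with CCAAT boxes and E2F-like matches of either strand in capitals.
Stil, chr4:114999868-115000117, strand +: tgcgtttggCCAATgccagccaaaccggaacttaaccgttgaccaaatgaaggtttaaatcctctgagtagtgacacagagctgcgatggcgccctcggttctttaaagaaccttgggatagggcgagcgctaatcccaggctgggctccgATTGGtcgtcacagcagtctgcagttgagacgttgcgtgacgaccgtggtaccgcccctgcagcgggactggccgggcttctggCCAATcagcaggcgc
Plk4, chr3:40799701-40799950, strand +: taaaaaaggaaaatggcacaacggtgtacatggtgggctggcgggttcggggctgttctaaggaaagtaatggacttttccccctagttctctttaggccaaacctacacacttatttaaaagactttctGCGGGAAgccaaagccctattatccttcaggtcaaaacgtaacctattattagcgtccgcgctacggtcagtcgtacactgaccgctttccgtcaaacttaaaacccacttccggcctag
Cdk5rap2, chr4:70410436-70410685, strand -: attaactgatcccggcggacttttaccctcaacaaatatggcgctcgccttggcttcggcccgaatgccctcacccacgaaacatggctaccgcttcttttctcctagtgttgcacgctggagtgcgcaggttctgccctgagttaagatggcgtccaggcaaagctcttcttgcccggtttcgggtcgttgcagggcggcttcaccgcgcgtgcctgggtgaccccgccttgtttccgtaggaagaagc
Stil has CCAAT letters at positions -241, -99 and -15 from the start. Plk4 has an E2F-like match on the opposite strand at position -120. Cdk5rap2 holds none of the 3 motifs in this window, and neither does Cenpj, which fell with age. Wdr62 and Cep152, whose group means ranged less than those of Cenpj, hold both CCAAT boxes and an E2F-like match. Wdr62 and Cep152 read low on the arrays, which limits the range they can show. A link between the motifs and the course with age was not tested. A match describes the letters and is not evidence that a factor binds there.

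The first comparison asked how these genes change in normal brain between E14 and birth. Aspm, Stil, Plk4 and Cenpj fell together, by the largest amounts among the members, and Cdk5rap2, Cep63 and Cep152 fell by less than 1 log2 unit relative to the median gene. Mcph1 did not pass the test. Without any filter on low values 9 of the 10 members were called lower at P0 in both mixed wild types, Mcph1 being the other, while 27.8% of all 18194 genes were called lower, 11% higher and 38.8% in either direction. With the filter described below, 7 of the 8 tested were called lower, where 35% of genes were lower and 49.8% changed, a count that includes genes tested only because they are high at E14. Arrays look normalized within an age, so changes between ages are given relative to the median gene, which itself changed by -0.19 from E14 to P0 among the genes tested, and are means over mixed A and mixed B. In brain RNA, fewer cells of a type and less RNA per cell cannot be told apart.

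Aspm, which organises microtubules at spindle poles and is the gene most often mutated in human primary microcephaly, read 9.21, 9.29 and 9.76 in the 3 mixed A arrays of E14 and 8.96, 8.84 and 8.93 in mixed B. At P0 it read 5.97, 6.29 and 5.39 in mixed A, 6.41, 6.42 and 6.18 in mixed B, and 6.07, 6.12 and 5.83 in inbred wild type. At P14 it read 4.62, 4.24 and 3.95 in mixed A, 4.64, 4.50 and 4.39 in mixed B, and 4.20, 4.46 and 4.25 in inbred wild type. The 3 ages did not overlap in any background. From E14 to P0 Aspm fell by 2.86 ± 0.19 relative to the median gene (SE, limma adjusted p = 1.25e-10), a 7.28-fold lower level. By limma, from P0 to P14 it fell by a further 1.85 ± 0.19 in the mixed backgrounds (adjusted p = 9.66e-08) and 1.75 ± 0.19 in the inbred one (adjusted p = 2.98e-08).

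Plk4 read 9.30, 9.53 and 9.54 in mixed A and 9.10, 9.02 and 9.12 in mixed B at E14. At P0 it read 7.26, 6.96 and 6.31 in mixed A, 7.44, 7.53 and 7.67 in mixed B and 7.01, 6.96 and 7.12 in inbred wild type, and at P14 5.60, 5.63 and 5.61, 6.20, 5.96 and 6.12, and 5.08, 5.60 and 5.30 in the same backgrounds. All arrays of an age lay below those of the age before. Its change relative to the median gene was -1.88 ± 0.16 from E14 to P0 (limma adjusted p = 5.2e-08), 3.69-fold lower, and -1.47 ± 0.16 from P0 to P14 in the mixed backgrounds (limma adjusted p = 8.1e-07).

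Stil read 7.48, 7.41 and 7.68 in mixed A and 7.02, 6.81 and 7.25 in mixed B at E14, against P0 means of 4.72 ± 0.23, 4.98 ± 0.03 and 4.68 ± 0.16 and P14 means of 3.58 ± 0.12, 3.89 ± 0.15 and 3.74 ± 0.14 in mixed A, mixed B and inbred wild type (SD, n = 3 each). Its 3 ages were fully apart as well. The fall was 2.23 ± 0.13 from E14 to P0 (limma adjusted p = 2.3e-11) and 1.25 ± 0.13 from P0 to P14 in the mixed backgrounds (limma adjusted p = 2.31e-07). Testing required at least 1 group mean of 5.253 or more, which is the median over all arrays and probe sets. Stil passed only through E14, so that a difference from P0 was built into its passing. Its P0 and P14 values lie in the low range of the arrays, so no fold is given for either fall.

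Cenpj fell at both intervals. It read 7.57, 8.21 and 8.28 in mixed A and 7.34, 7.48 and 7.43 in mixed B at E14. At P0 the 9 wild-type arrays lay between 5.51 and 6.71, and at P14 between 3.89 and 4.58, with no overlap between ages. Cenpj fell by 1.28 ± 0.22 from E14 to P0 (limma adjusted p = 0.00017), 2.43-fold, and its change was -2.06 ± 0.22 from P0 to P14 in the mixed backgrounds (limma adjusted p = 3.58e-07). In the inbred background the second fall was 2.22 ± 0.22 (limma adjusted p = 1.07e-08). The P14 values of Cenpj and Aspm, like those of Stil, lie under the filter and no higher than the highest Dcx value in its own knockouts, so no fold is given for their second fall.

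Cep63 stayed well above the filter at all ages. It read 7.77, 8.24 and 8.11 in mixed A and 8.08, 8.07 and 8.04 in mixed B at E14, and at P0 7.16, 7.30 and 7.27 in mixed A and 7.69, 7.53 and 7.47 in mixed B. The P0 arrays all lay below the E14 arrays of their background, but by under 1 log2 unit. The change was -0.46 ± 0.11 relative to the median gene (limma adjusted p = 0.000642), 1.37-fold lower. From P0 to P14 Cep63 fell by 0.50 ± 0.11 in the inbred background (limma adjusted p = 0.00101), and in the mixed backgrounds its change of -0.42 ± 0.11 did not pass (limma adjusted p = 0.123).

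Cdk5rap2 read 6.05, 6.29 and 6.79 in mixed A and 6.01, 5.89 and 5.58 in mixed B at E14, and at P0 it read 5.02, 4.98 and 5.85 in mixed A and averaged 5.15 ± 0.05 in mixed B. The highest P0 array of mixed A stood within the E14 range of mixed B. Its change was -0.69 ± 0.19 (limma adjusted p = 0.00434), 1.62-fold lower, and Cep152 changed by -0.44 ± 0.16 (limma adjusted p = 0.0153), 1.36-fold lower, from E14 means of 5.95 and 5.71 in mixed A and mixed B. Cep152 lost its call without the P0 mixed B array of replicate 1 or replicate 3 (limma adjusted p = 0.0700 and 0.0546), with changes of -0.41 and -0.42, and its P0 means of 5.16 and 5.24 lie under the filter. When all arrays were quantile normalized together, Cdk5rap2, Cep63 and Cep152 no longer passed (limma adjusted p = 0.0563, 0.0648 and 0.228), at changes of -0.68, -0.45 and -0.45 that are close to those above, while Aspm, Stil, Plk4 and Cenpj did pass. From P0 to P14 neither Cdk5rap2 nor Cep152 passed in the mixed backgrounds, with changes of -0.22 ± 0.19 and -0.19 ± 0.16 and limma adjusted p of 0.967 and 0.996.

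Mcph1, Wdr62 and Cep135 moved little or lay low. The Mcph1 arrays overlapped at all ages, between 5.88 and 6.62 in the 6 mixed wild-type arrays of E14 and between 5.68 and 6.19 in the 6 of P0. Its change from E14 to P0 was -0.08 ± 0.16 relative to the median gene (limma adjusted p = 0.35). Before that shift, the 95% intervals of its difference reached from -0.68 to -0.01 in mixed A and from -0.54 to 0.14 in mixed B. Wdr62, a spindle pole scaffold, had no group mean above the filter. Its mixed wild-type means were 5.05 and 4.90 at E14, 4.54 and 4.21 at P0, and 4.55 and 4.49 at P14, for A and B in turn. Cep135 had means of 5.22 and 4.76 at E14, 4.16 and 4.26 at P0, and 4.27 and 4.13 at P14. Without the filter, Wdr62 changed by -0.47 ± 0.16 and Cep135 by -0.66 ± 0.11 from E14 to P0 relative to the median of all genes (limma adjusted p = 0.00932 and 0.000462), and neither passed from P0 to P14.

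**Figure D1:**
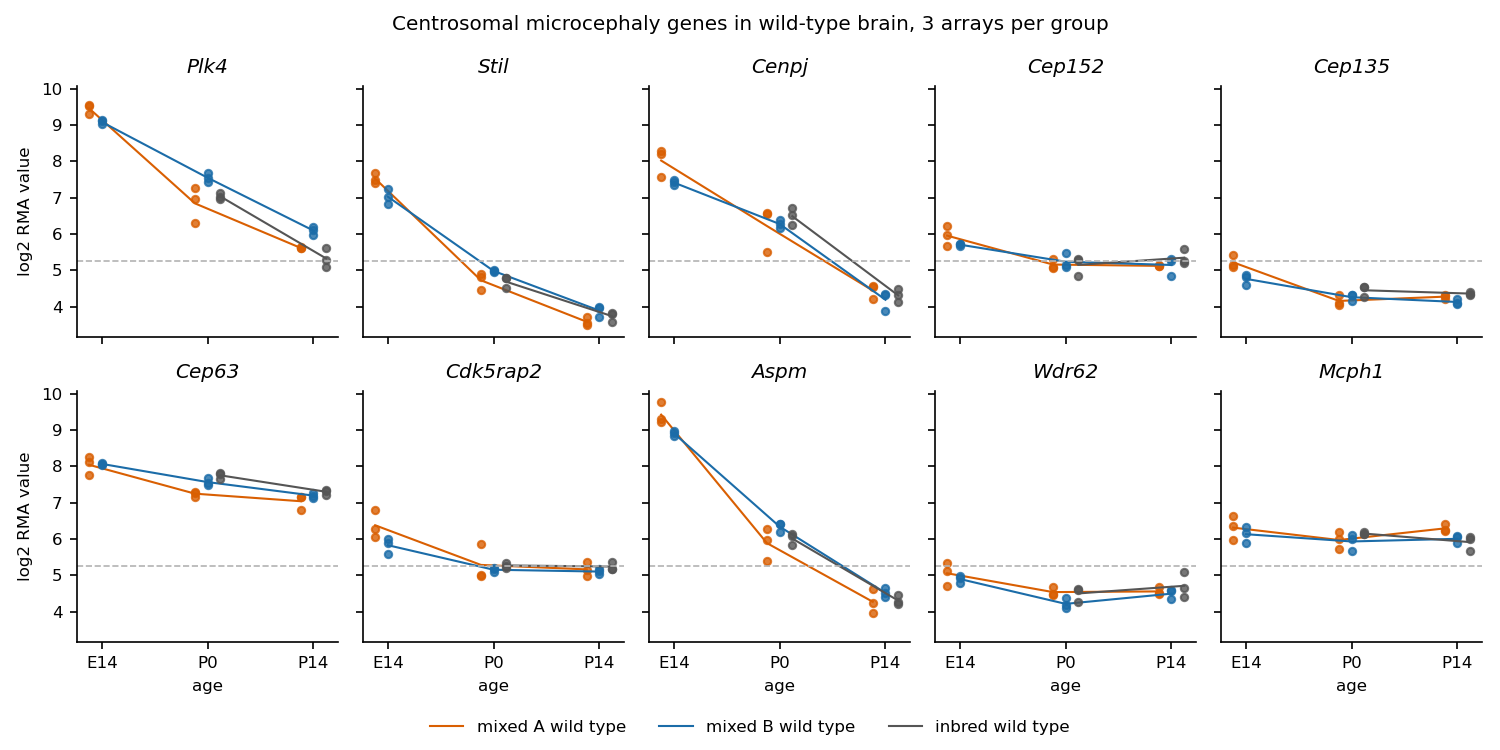
Log2 RMA value (y axis) of each of the 10 genes by age (x axis) in mixed A, mixed B and inbred wild-type brain, where points are arrays, lines join group means and the dashed line marks the filter at 5.253. Aspm, Plk4, Stil and Cenpj step down at both intervals, Cep63 declines by less than 1 log2 unit from E14 to P0, and Mcph1 stays near 6.

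After birth the same 4 genes fell again. In the mixed backgrounds 4 of the 10 members were called lower from P0 to P14 without the filter, against 15.8% of all genes lower, 32.1% higher and 47.9% in either direction. With the filter the 4 were the same among 8 tested, where 22.1% of genes were lower, 34.3% higher and 56.4% changed. In the inbred background 5 were called lower with and without the filter, the additional one being Cep63, against 24.5% of all genes lower, 40.9% higher and 65.4% changed without it, and 33.8%, 38% and 71.7% with it. The median gene changed by 0.13 in the mixed backgrounds over this interval. The steps themselves were compared by a contrast chosen after they had been seen, in which 41.5% of tested genes were called and 31.6% were called higher. Stil was the 1 member past the threshold, with a difference of 1.31 ± 0.23, or 0.97 relative to the median gene. Because Stil was tested only through its E14 level and reads low afterwards, a larger first step was built in, and the value is a description. The difference for Aspm was 1.33 ± 0.32 (limma adjusted p = 0.0704). Cenpj (0.03 in mixed A, -0.94 in mixed B) did not pass (limma adjusted p = 1).

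The probe sets of one gene were compared with each other. All 5 Aspm probe sets fell from E14 to P0, with changes from -3.44 to -1.20 relative to the median probe set, and all 3 Plk4 probe sets fell, with changes from -2.11 to -1.74. Of these, 4 Aspm probe sets and 1 Plk4 probe set had mixed wild-type means under the filter at P0 and P14, so that a difference from E14 was built into their being tested. From P0 to P14 the Plk4 probe sets changed by -1.40 to -0.65 and 3 of the Aspm probe sets by -1.78 to -0.82, and all of these passed. The other Aspm probe sets, which have the lowest means, had P0 means near 4 and changed by 0.15 and 0.14 without passing (limma adjusted p = 0.720 and 0.331). The second Cdk5rap2 probe set changed by -0.13 ± 0.16 from E14 to P0 and did not pass (limma adjusted p = 0.242), so the Cdk5rap2 fall rests on 1 of its probe sets. The remaining probe sets of Cep63, Mcph1, Wdr62 and Cdk5rap2 had no group mean at the filter and were not tested.

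**Figure D2:**
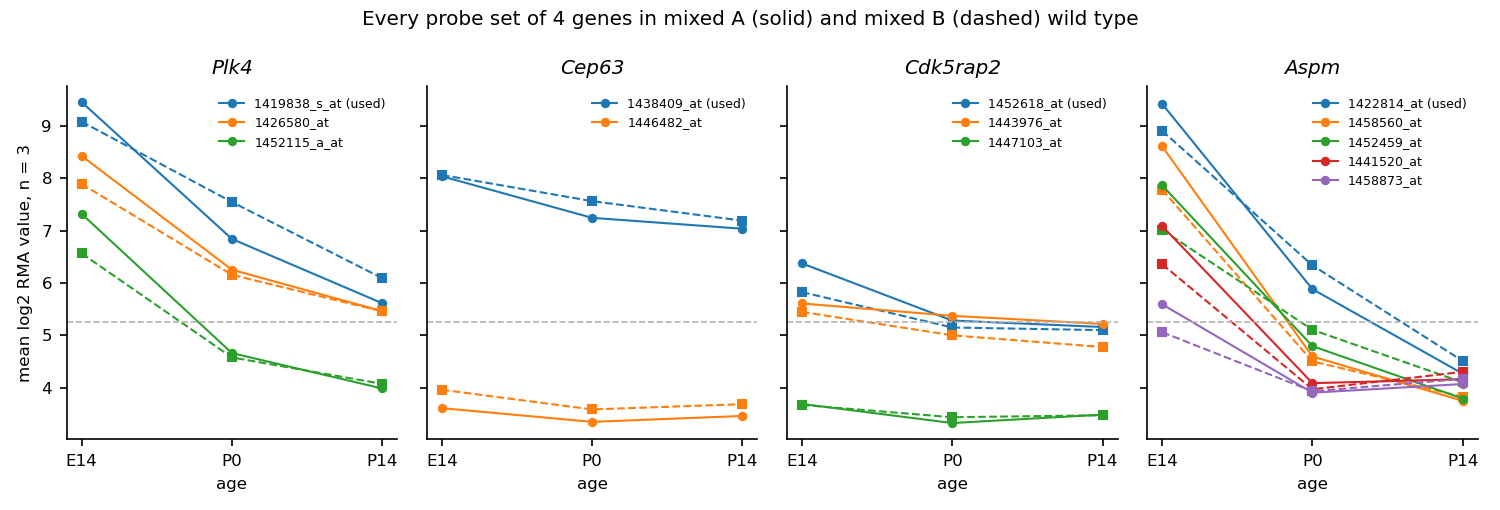
Mean log2 RMA value (y axis) at each age (x axis) for every probe set of Plk4, Cep63, Cdk5rap2 and Aspm in mixed A (solid) and mixed B (dashed) wild type, with the filter at 5.253 as a dashed horizontal line. All Aspm and Plk4 probe sets drop between E14 and P0, and the 2 Aspm probe sets already near 4 at P0 show no further drop.

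Other genes of the centrosome and of mitosis were counted from lists chosen with earlier results of these data known. From E14 to P0, 17 of 17 mitosis markers were lower, with a median of -2.25, led by the checkpoint kinase Bub1 at -3.44 ± 0.13 and the kinesin Kif20a at -3.10 ± 0.15. Of the centrosome kinases and spindle pole genes 16 of 17 were lower, with a median of -2.19, among them Kif11 (-2.71 ± 0.21), Tpx2 (-2.64 ± 0.13) and Hmmr (-2.59 ± 0.19). With Plk1 on both, these lists share a gene. Over all tested genes 35% were lower, 14.8% higher, and the median is 0 by construction.

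Lists of structural centrosome genes held both genes that fell steeply and genes that did not pass. Of other centriole assembly genes 14 of 18 were lower, with a median of -0.63, led by Cep192 (-1.80 ± 0.16), which recruits Plk4, and by Cep85 (-1.25 ± 0.14) and Sass6 (-1.18 ± 0.15), the cartwheel protein. Of pericentriolar material and gamma-tubulin genes 14 of 22 were lower and 1 higher, with a median of -0.46 and Nedd1, which attaches gamma-tubulin complexes, at -2.02 ± 0.14. Of appendage and linker genes 12 of 21 were lower and 1 higher, with a median of -0.43 and the kinase Nek2 at -2.30 ± 0.15. Of the other primary microcephaly genes 11 of 17 were lower, with a median of -0.51. Their leading members were the kinetochore genes Cenpe (-2.46 ± 0.13) and Knl1 (-2.38 ± 0.17) and the condensin subunit Ncaph (-1.75 ± 0.13).

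From P0 to P14, where 22.1% of tested genes were lower and 34.3% higher, 16 of 17 mitosis markers were lower, with a median of -1.94 and Mki67 at -2.64 ± 0.17, while 10 of 17 spindle pole genes were lower and 3 higher. Of centriole assembly genes 9 of 18 were lower, of pericentriolar genes 10 of 22 with 1 higher, of appendage and linker genes 5 of 21 with 2 higher, and of other primary microcephaly genes 10 of 17 with 2 higher. The postnatal rises include Tacc1, a centrosomal coiled-coil gene, at 2.31 ± 0.09, and Cit, the citron kinase of cytokinesis, at 2.09 ± 0.11.

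Markers of cell types moved with age beside the members. From E14 to P0, 10 of 13 radial glia markers were lower and 2 higher (median -1.10), all 7 intermediate progenitor markers were lower (median -2.29), 4 of 8 neuron markers were higher, and 4 of 6 oligodendrocyte precursor markers were higher. The mean over all 17 mitosis markers was 9.65 and 9.20 in mixed A and mixed B at E14, 6.92 and 6.90 at P0, and 5.34 and 5.25 at P14. The mean over 7 intermediate progenitor markers was 9.14 and 8.79 at E14, 6.44 and 6.42 at P0, and 5.67 and 5.52 at P14. The mean over 13 midbrain, hindbrain and spinal cord markers was 5.32 and 5.32 in mixed A and mixed B at E14, 4.21 and 4.22 at P0, and 4.43 and 4.50 at P14. The part of cell composition and of brain region in the members' changes was not tested.

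The mixed wild types differed from each other, which bears on each mutant comparison. At E14 the arrays of mixed A all lay above those of mixed B for 6 of the 9 tested members, as they did for 17.9% of tested genes, and 0 members were called (0.0681% of tested genes called, 0.0255% lower). The differences, mixed A minus mixed B, were 0.51 ± 0.22 for Aspm, 0.55 ± 0.18 for Cdk5rap2, 0.60 ± 0.23 for Cenpj, 0.50 ± 0.19 for Stil and 0.45 ± 0.19 for Cep135, all at an unadjusted limma p under 0.05 but with adjusted p of at least 0.199, and 0.37 ± 0.18 for Plk4 (limma adjusted p = 0.322). The mitosis marker mean lay at 9.40 to 9.84 in mixed A and 9.13 to 9.24 in mixed B, and 2 of the 3 mixed A arrays are among 6 E14 arrays with low markers of midbrain, hindbrain and spinal cord. Without those 6, mixed A rests on 1 array, and the differences were 0.30 for Aspm, 0.22 for Cdk5rap2, 0.16 for Cenpj, 0.46 for Stil, 0.38 for Cep135 and 0.21 for Plk4 (limma adjusted p of at least 0.261). At P0 and P14 Plk4 was the member called between them, lower in mixed A by 0.71 ± 0.23 and 0.48 ± 0.20 (limma adjusted p = 0.0213 and 0.0443), where 28.7% and 52.7% of tested genes were called and 10.7% and 15.2% were lower. The P0 call was lost without mixed A replicate 3 or mixed B replicate 3 (limma adjusted p = 0.168 and 0.0717), at differences of -0.44 and -0.64. The P14 call was lost without any 1 of the mixed A arrays or without mixed B replicate 1 or 3 (limma adjusted p = 0.0810 to 0.124), though the difference stayed between -0.49 and -0.42. Without the filter, where 38.3% of all genes were called at P14, Plk4 missed the threshold there (limma adjusted p = 0.0550) and Stil passed at -0.31 (limma adjusted p = 0.0124). The other Plk4 probe sets had higher means in mixed A at P0: the second averaged 6.25 in mixed A, against 6.16 in mixed B (limma adjusted p = 0.737), and the third, which was not tested, averaged 4.66 against 4.58. At P14 the second averaged 5.46 in both and the third 3.99 against 4.07.

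At P0 and P14 this difference ran through many groups. The first principal component of all tested genes, which held 39.36% (P0) and 57.62% (P14) of the variance, put Ndel1 ko/+, Ndel1 ko/cko and, at P0, Dcx ko/Y on the side of mixed B, and the Lis1, inbred and mix-labelled groups on the side of mixed A. Plk4 had P14 means of 5.26 to 5.61 in the 5 groups of the mixed A side and 5.85 to 6.10 in the 3 of the mixed B side. At P0 its means were 6.79 to 7.03 in 6 groups and 7.15 to 7.55 in 4. Aspm means overlapped at P0, at 5.69 to 6.01 and 6.002 to 6.62 on these sides. At P14, where it is under the filter, they were 3.90 to 4.30 and 4.51 to 4.81, and its arrays overlapped. The difference between the 3′ and the 5′ control probe sets of actin, a measure of RNA or labelling quality, was 0.122 to 0.214 on the mixed A side and 0.274 to 0.449 on the mixed B side at P0, and 0.497 to 0.956 against 0.627 to 0.717 at P14. Its part in the Plk4 difference was not tested.

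At E14, the 6 of the 24 arrays with the lowest mean of midbrain, hindbrain and spinal cord markers were set beside the other 18. The 6 are replicates 1 and 3 of Lis1 ko/cko, replicate 1 of Lis1 ko/+, the library labelled 14-3-3 epsilon ko/ko replicate 2, and replicates 2 and 3 of mixed A wild type. The mean over 13 of these markers was 4.45 to 4.59 in the 6 arrays and 4.91 to 7.11 in the other 18. The 6 were taken by rank on this mean, so its lack of overlap was fixed by the choice. Aspm read 9.21 to 9.76 in the 6 and 8.47 to 9.26 in the 18. Plk4 read 9.48 to 9.78 in the 6 and 8.74 to 9.36 in the 18, and Cep152 5.95 to 6.25 in the 6 and 5.40 to 5.85 in the 18. The ranges of every other member overlapped. How many of all tested genes separate between the 6 and the 18 was not counted, so these ranges are a description. Cep63 read 7.69 to 8.37 in the 6 and 7.72 to 8.42 in the 18, in the same range. The mitosis marker mean was 9.72 to 9.89 in the 6 and 8.88 to 9.56 in the 18. Without the 6 arrays, 7 members were called lower at P0 than at E14, on 1 E14 array of mixed A that was assumed to vary like the other groups, with Aspm changed by -2.77 ± 0.25 and Plk4 by -1.81 ± 0.23 (log2, relative to the median gene, ± SE). The part of region in the members' E14 values was not tested.

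**Figure D3:**
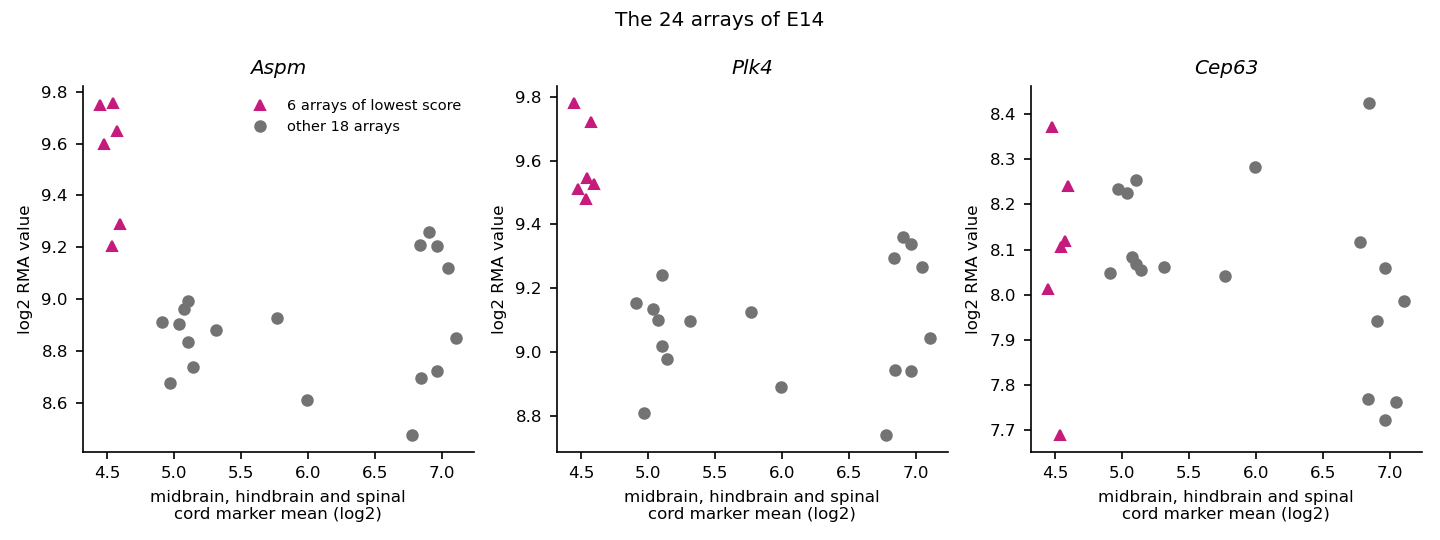
Log2 RMA value (y axis) of Aspm, Plk4 and Cep63 in the 24 E14 arrays against the markers of midbrain, hindbrain and spinal cord (x axis, mean log2 value), with the 6 arrays of lowest marker mean as triangles. Plk4 read 9.48 to 9.78 in the triangles and 8.74 to 9.36 in the other arrays, and Cep63 read 7.69 to 8.37 and 7.72 to 8.42. How many of all tested genes separate in this way was not counted.

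The next comparisons asked whether the mutants differ from wild type. In the 18 comparisons of a mutant with wild type 0 members were called by limma, while 0% to 6.32% of tested genes were. At an unadjusted p under 0.05 there were 2 such differences, Cep63 in P0 Lis1 ko/+ and Cenpj in P0 inbred 14-3-3 epsilon ko/ko. The comparisons of one age share their control arrays. With 3 arrays a group the intervals are wide: the 95% interval of the Aspm difference between E14 Ndel1 ko/+ and mixed B wild type runs from -0.79 to 0.16.

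At E14, 9 members were tested, all but Wdr62. In Ndel1 ko/+, where 0.0341% of genes were called, Aspm read 8.47, 8.61 and 8.70 and Plk4 8.74, 8.89 and 8.94, in each case below all arrays of both mixed wild types, as were 5.83% of tested genes. Their differences were -0.83 against mixed A and -0.31 against mixed B for Aspm, and -0.60 and -0.22 for Plk4, and neither passed (limma adjusted p = 1). In the same arrays the mitosis marker mean was 8.88 to 9.14, against 9.40 to 9.84 in mixed A and 9.13 to 9.24 in mixed B. The microglia marker mean was 6.66 to 6.78, against 5.90 to 6.39 and 6.39 to 6.43, and that of midbrain, hindbrain and spinal cord 5.99 to 6.84, against 4.54 to 6.84 and 5.07 to 5.77. Their part in the differences was not tested. In Ndel1 ko/cko, with 0% of genes called, Aspm read 8.74, 8.91 and 8.88, overlapping mixed B. In Lis1 ko/+ and Lis1 ko/cko, with 0% of genes called, Aspm averaged 9.38 ± 0.33 and 9.18 ± 0.44, and apart from 1 Lis1 ko/cko array at 8.72 its arrays lay within the wild-type range of 8.84 to 9.76. In Dcx ko/Y (0.0426% of genes called) and in the libraries labelled 14-3-3 epsilon ko/ko (0%), the members' mean differences ran from -0.15 to 0.28 and from -0.14 to 0.22. The 0.28 is that of Cep135, which passed the filter at E14 only through Dcx ko/Y. It averaged 5.27 there, against 5.22 and 4.76 in mixed A and mixed B, so a positive difference was built into its being tested. Without the 2 libraries that keep Ywhae, 0 of the 9 members were called in 14-3-3 epsilon ko/ko, with the lone array assumed to vary like the other groups.

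At P0, 7 members were tested, without Wdr62, Stil and Cep135. Cep63 read 6.67, 6.64 and 7.31 in Lis1 ko/+, against 7.16, 7.30 and 7.27 in mixed A and 7.69, 7.53 and 7.47 in mixed B. Replicates 1 and 2 of Lis1 ko/+ lay below all wild-type arrays, and replicate 3 lay above those of mixed A. The differences were -0.37 against mixed A and -0.69 against mixed B (limma adjusted p = 1; 0% of genes called). In Lis1 ko/cko Cep63 read 7.12, 7.34 and 7.23, with differences of -0.02 and -0.33. The members' mean differences there ran from -0.42 to -0.004, against a median of -0.007 over all tested genes. The lowest was -0.42 ± 0.19 for Aspm (limma adjusted p = 1, with 0.331% of genes called).

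In P0 Ndel1 ko/cko the members' mean differences ran from 0.07 to 0.51, against a median of -0.005 over all tested genes, and 0.849% of genes were called. Cep152, which averaged 5.29 there, passed the filter at P0 only through this group and Dcx ko/Y (5.28). Its means of 5.16 and 5.24 in mixed A and mixed B lie under the filter, so a positive difference was favoured by its being tested. Aspm read 6.60, 6.48 and 6.77, above all 6 arrays of the mixed wild types, with differences of 0.73 against mixed A and 0.28 against mixed B (limma adjusted p = 0.915). Cep63 read 7.83, 7.70 and 7.78, above them as well, with differences of 0.53 and 0.21 (limma adjusted p = 0.852). Of tested genes 7.3% lay above all 6 arrays in this way. Beside this, the 3′ minus 5′ actin difference was 0.385 to 0.449 in Ndel1 ko/cko, against 0.154 to 0.205 in mixed A and 0.277 to 0.358 in mixed B. The intermediate progenitor marker mean was 6.63 to 6.79, against 6.39 to 6.52 and 6.32 to 6.503. The cerebellar granule cell marker mean was 6.10 to 6.29, against 6.42 to 6.94 and 6.59 to 6.73, and that of choroid plexus 6.41 to 7.56, against 7.58 to 8.06 and 7.92 to 8.28. The part of these measures in the differences was not tested. In P0 Ndel1 ko/+ and Dcx ko/Y, with 4.05% and 0.0255% of genes called, the members' mean differences ran from -0.10 to 0.25 and from -0.23 to 0.36. In the inbred background Cenpj read 6.52, 5.69 and 5.80 in 14-3-3 epsilon ko/ko, against 6.51, 6.23 and 6.71 in wild type, a difference of -0.48 ± 0.21 (limma adjusted p = 0.475; 0.0255% of genes called). The libraries labelled inbred Ndel1 ko/+ read 6.02, 6.11 and 6.14, all below the wild-type arrays, a difference of -0.40 ± 0.21 (limma adjusted p = 0.377; 0.255% of genes called). Of tested genes 12.4% lay below the inbred wild-type arrays in this way, Plk4 among them.

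At P14 only Mcph1, Cep152, Cep63 and Plk4 were above the filter. Plk4 read 5.35, 5.47 and 5.27 in Lis1 ko/cko, below the 5.60 to 5.63 of mixed A and the 5.96 to 6.20 of mixed B, as were 6.77% of tested genes. Its differences were -0.25 and -0.73 (limma adjusted p = 0.628), where 6.32% of genes were called and 3 of 11 mitosis markers were lower. In Lis1 ko/+ Plk4 read 4.63, 5.75 and 5.41, with differences of -0.35 and -0.83 (limma adjusted p = 1; 0% of genes called). In the mix-labelled Ndel1 ko/+ libraries it read 5.39, 5.46 and 5.16 (limma adjusted p = 1; 0.114% of genes called). In Ndel1 ko/+ and Ndel1 ko/cko, which lie on the mixed B side, it averaged 6.10 ± 0.30 and 5.85 ± 0.13 (limma adjusted p = 1; 0% and 0.0895% of genes called). Against mixed B alone Plk4 would be called lower in Lis1 ko/cko, Lis1 ko/+ and the mix-labelled group (limma adjusted p = 0.00274, 0.00117 and 0.00244), which all lie on the mixed A side.

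**Figure D4:**
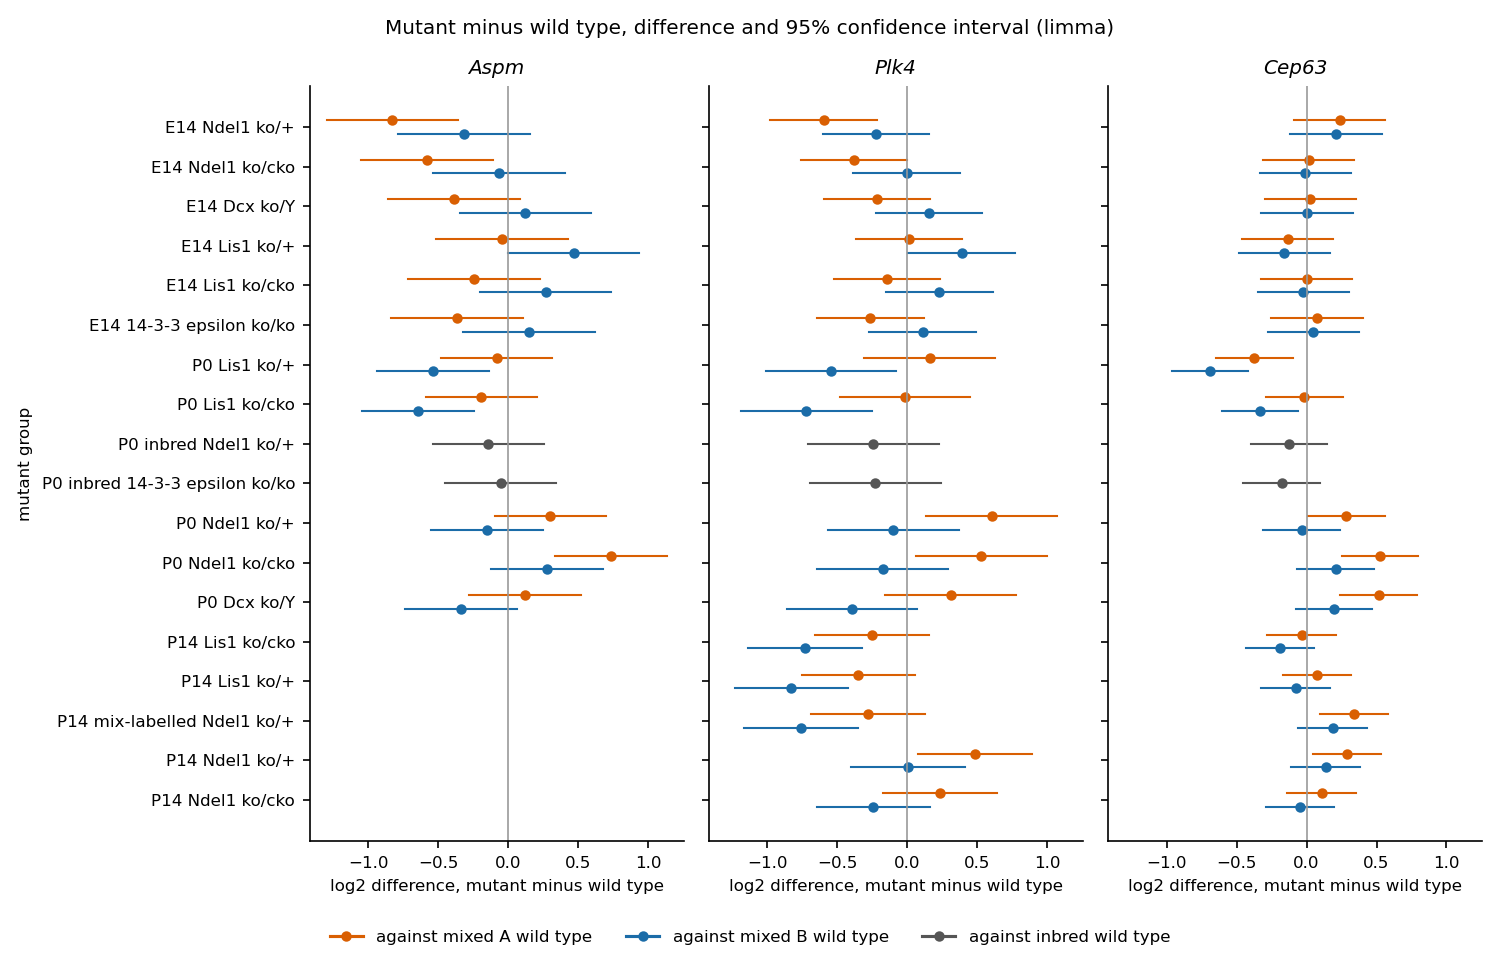
Log2 difference, mutant minus wild type (x axis), with its 95% confidence interval from limma for Aspm, Plk4 and Cep63 in each mutant group (y axis), against mixed A, mixed B or inbred wild type. Aspm was below the filter at P14 and is not drawn there. For Plk4 at P14 every difference against mixed A lies above that against mixed B, by the difference between the control means, which is the same in each group. Against both, 0 members were called.

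Setting ko/cko against ko/+ within a line gave 0 called members in the 6 comparisons, where 0.0426% to 9.13% of genes were called (0.128% in E14 Ndel1, 0.309% in P14 Ndel1, 8.02% in P14 Lis1). The targeted transcript was not lower in ko/cko in each pair. At E14, P0 and P14 in turn, Ndel1 averaged 9.82, 9.56 and 10.00 in ko/cko, against 9.45, 9.33 and 10.01 in ko/+. Pafah1b1 averaged 9.84, 10.08 and 10.36 in Lis1 ko/cko, against 10.07, 10.01 and 10.21 in Lis1 ko/+. In P0 Ndel1 ko/cko against ko/+, with 9.13%, Aspm read 6.60, 6.48 and 6.77 in ko/cko and 6.32, 6.04 and 6.20 in ko/+, a difference of 0.43 ± 0.19 (limma adjusted p = 0.168). Arrays of ko/cko lay above all arrays of ko/+ for Aspm, Cdk5rap2, Cenpj and Cep63 among the 7 tested members, as for 29% of tested genes, and for Stil, which was not tested. Of 16 mitosis markers 5 were called higher there. In P0 Lis1 ko/cko against ko/+, with 0.569% of genes called, Cep63 differed by 0.36 ± 0.13 (limma adjusted p = 0.212). At E14, with 0.0426% of genes called, Aspm differed by -0.20 ± 0.22 between Lis1 ko/cko and ko/+ (limma adjusted p = 0.749). Without the 6 arrays of low region markers that difference was -0.47 ± 0.12 and passed (limma adjusted p = 0.0310), on 1 array of ko/cko and 2 of ko/+, so that the lone array was assumed to vary like the other groups.

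The course with age was followed in each mutant over all 78 arrays. From E14 to P0, Aspm fell in each mutant, with changes relative to the median gene of -3.41 in Lis1 ko/+, -3.27 in Lis1 ko/cko, -2.14 in Ndel1 ko/+, -2.01 in Ndel1 ko/cko and -2.81 in Dcx ko/Y. Of the 9 members tested, 9, 9, 8, 7 and 9 were called lower in this order, where 67.2%, 68.2%, 65.5%, 62.4% and 67.3% of genes were called in either direction and 43.3%, 46.3%, 49.4%, 45.8% and 46.6% were lower. These counts include members that pass the filter only through E14. From P0 to P14 the called members were Aspm, Plk4, Stil and Cenpj in Lis1 ko/+, Lis1 ko/cko and Ndel1 ko/+ (71.1%, 71.2% and 67% of genes called, 27.8%, 26.8% and 27% lower). In Ndel1 ko/cko Cdk5rap2, Cep63 and Cep135 were called lower as well, which made 7 (70.8% of genes called, 31.7% lower). Cep135 was tested here only through E14 Dcx ko/Y, and its Ndel1 ko/cko means of 4.46 at P0 and 3.86 at P14 lie under the filter. Cdk5rap2 went from 5.37 to 4.83, which is under the filter at P14. The difference between a mutant's step and that of the wild types was itself tested, and 0 members were called in 9 such tests, where between 0% and 2.87% of genes were (0.138%, 0.942%, 0.0613%, 0.207% and 0.046% in the others with any). The single difference with an unadjusted limma p under 0.05 was Cep63 from P0 to P14 in Lis1 ko/+, at 0.53 (unadjusted p = 0.0246, adjusted p = 1).

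Over the 26 groups the members differed in how far their levels ranged. Group means of Aspm spanned 5.52 log2 units, highest in E14 mixed A wild type (9.42 ± 0.30) and lowest in P14 Lis1 ko/cko (3.90 ± 0.26). Plk4 spanned 4.21, Cenpj 4.05 and Stil 3.94, while the others spanned 1.55 (Cdk5rap2), 1.41 (Cep135), 1.40 (Cep63), 1.02 (Wdr62), 1.00 (Cep152) and 0.57 (Mcph1). With groups ordered by their mean, there are 25 pairs of neighbours. Arrays of neighbours overlapped in 20 pairs for Plk4, 21 for Aspm, 23 for Cenpj and Stil, 24 for Cdk5rap2, Cep135 and Cep152, and all 25 for Cep63, Mcph1 and Wdr62. All E14 groups of Aspm stood above all P0 groups, with means of 8.59 to 9.42 and 5.69 to 6.62, and these above all P14 groups, with means of 3.90 to 4.81.

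**Figure D5:**
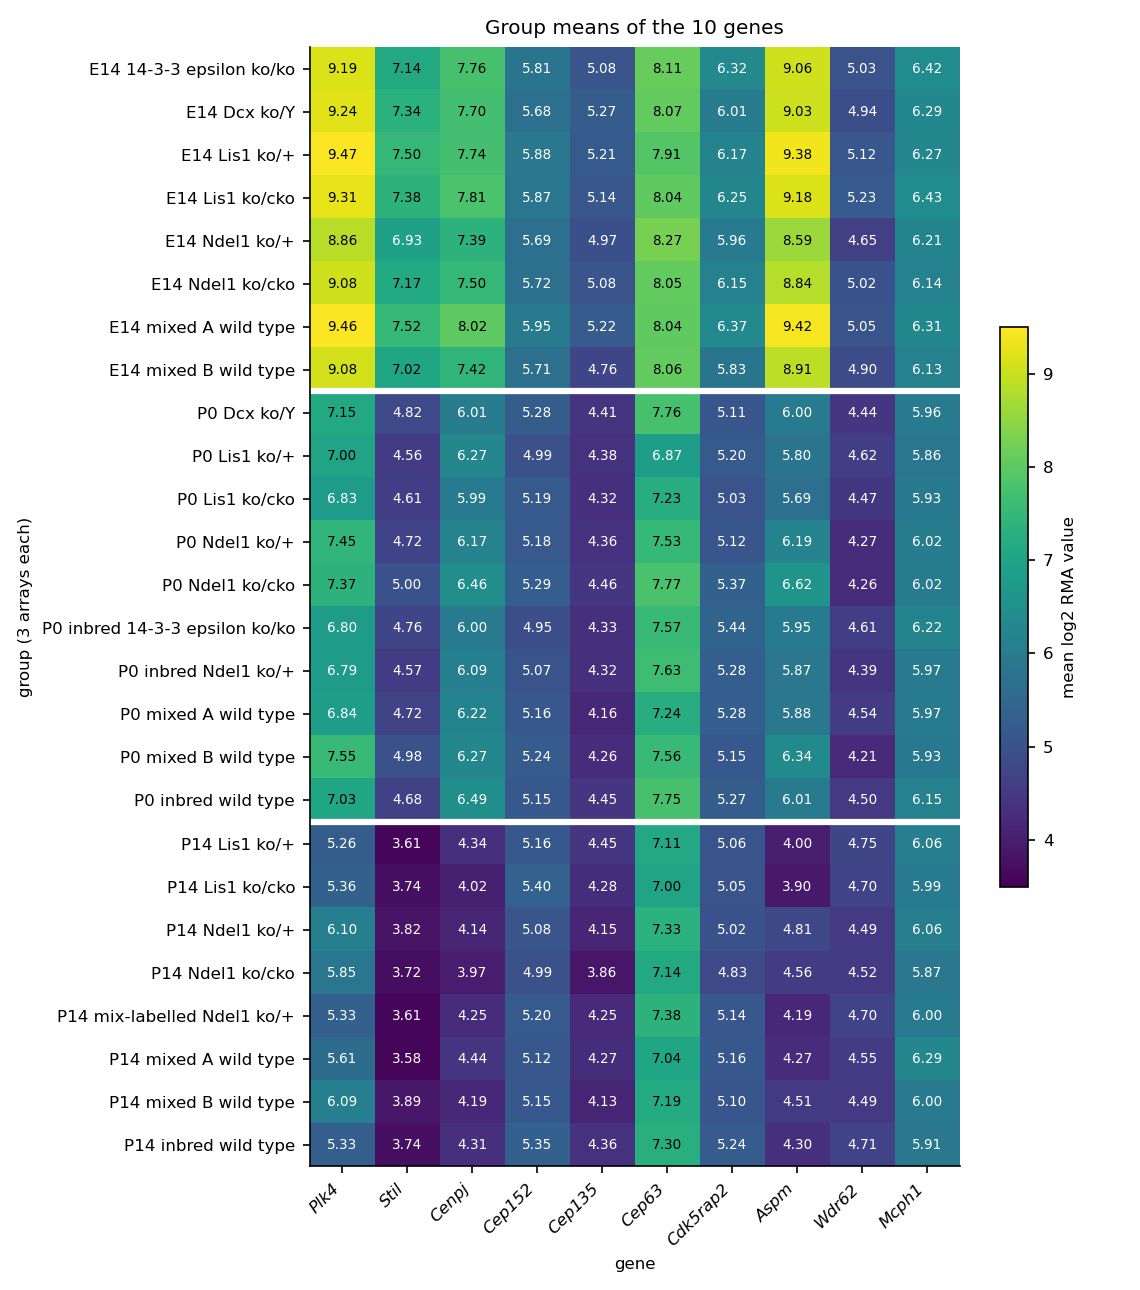
Mean log2 RMA value of the 10 genes (columns) in the 26 groups of 3 arrays (rows), printed in each cell and shown as colour. Aspm ranges from 9.42 in E14 mixed A wild type to 3.90 in P14 Lis1 ko/cko, and Mcph1 stays within 0.57 log2 units.

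Genes whose 26 group means followed a member most closely were picked among 13044 genes by Pearson's r, as a description. The points share the 3 ages, so r is high for any gene with a similar course, and r within age is given for the first gene named. Aspm was most like the kinesin Kif18a (0.998, within age 0.896), Sgo1 and Cdca7, and Plk4 was most like the condensin subunit Smc4 (0.996, within age 0.865), Cep55 and Shcbp1. Stil was most like the recombination gene Rad54l (0.997, within age 0.781), Bub1 and Sox3, and Cenpj most like the replication gene Gins1 (0.995, within age 0.674), Ezh2 and Mcm2. Likeness was lower for Cdk5rap2 (A930024E05Rik, Gli3 and Zfp516, at most 0.976, within age 0.694) and Cep152 (Antxr1, Cul1 and Marchf5, at most 0.969, within age 0.736). It was lower as well for Cep135 (Ccnf, Dennd2a and Kif23, at most 0.962, within age 0.603) and Wdr62 (Nmnat1, Gtse1 and Zfp219, at most 0.945, within age 0.764). For Cep63 (Zfp811, Naa35 and Luc7l) and Mcph1 (Rbm19, Mrrf and Gemin8) it was at most 0.928 and 0.902, within age 0.658 and 0.779. Among the members Aspm and Plk4 had r = 0.994 over 26 groups and 0.863 within age, and Wdr62 and Cep63 had 0.481 and -0.429.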

How the data were processed

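Total RNA from brain was prepared with Trizol and labelled with biotin in an in vitro transcription, per the labels' protocols. The deposited values are log2 intensities summarized by RMA, per the submitters' processing notes; its version is not given here. Values of 45101 probe sets lie between 2.606 and 14.24 with 0 missing. The sorted values of 2 arrays lay closer within an age (root mean square difference 0.0342, median over pairs) than between ages (0.156).

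Of the probe sets 34958 name 1 gene. Models were fitted in R 4.3.3 with limma 3.58.1 (tables read with data.table version 1.17.8), with a trend on the mean level and Benjamini-Hochberg adjustment over all tested genes, with calls made below an adjusted p of 0.05. Fits covered all groups of 1 age for mutants, all wild types for development, and all 78 arrays for steps in mutants. Against both mixed wild types, and over both mixed backgrounds in the steps of age, both tests had to pass with the same sign (the larger p counts, or 1 for opposite signs), and the mean of both differences is printed. Genes with a group mean of at least 5.253 were tested: 11744 at E14, 11780 at P0, 12297 at P14, 12865 in wild types and 13053 over all arrays. The labels call samples of a group biological replicates and give no litters, so p-values reflect only the spread between these samples. The number of arrays limits the precision.

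The members and lists were chosen with earlier results of these data known. The 10 members are named throughout, with up to 4 called genes of the largest change per list and the 3 genes most alike per member. Alternatives were other filters, quantile normalization, single wild types, 1 joint fit, no trend, a replicate block and leaving out arrays. The fit was checked on simulated data. Figures used Python 3.11.15 with matplotlib 3.10.9, pandas 2.3.3 and numpy 2.4.6.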

Additional observations from a re-analysis of the deposited data

How the results depend on the processing

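Alternatives were run for the counts of called members in 49 comparisons. Of the members' differences called in the main or the alternative run, 0 changed direction, with steps within a mutant left out of this check. Changes of sign without a call were not counted. With the replicate block the count was the same in 49 of 49 comparisons, for example 7 from E14 to P0. Deviations of same-numbered samples had median correlations of -0.00153 at E14, -0.0137 at P0 and 0.0133 at P14. Different-numbered samples had 0.00284, 0.0131 and -0.0114, so these medians gave no sign that replicate numbers pair the samples. Same-numbered samples correlated above 0.1 in 21 of 84 pairs at E14, 25 of 135 at P0 and 15 of 84 at P14, with no such count for different numbers.

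With the stricter filter at 7.627, fewer members are tested. The counts were then 4 from E14 to P0 in the mixed wild types, in Lis1 ko/+, Lis1 ko/cko, Ndel1 ko/+ and Dcx ko/Y, 3 in Ndel1 ko/cko, 4 from P0 to P14 in Ndel1 ko/cko, and 0 for the difference of steps and for mixed A against mixed B at P0 and P14. With quantile normalization they were 4 from E14 to P0 in the mixed wild types, 5 in Dcx ko/Y, and 2 for mixed A against mixed B at P14, and with 1 joint fit 0 for the last.

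With mixed A alone the counts were 7 for the difference of steps, 1 in P0 Ndel1 ko/+, P0 Dcx ko/Y and P14 Ndel1 ko/cko, 2 in P0 Ndel1 ko/cko and P14 Ndel1 ko/+, and, for differences of a step from wild type, 3 in Ndel1 ko/+ and Ndel1 ko/cko from E14 to P0 and 1 in Ndel1 ko/cko from P0 to P14. With mixed B alone they were 2 for the difference of steps, P0 Lis1 ko/+ and P0 Lis1 ko/cko, 1 in P14 Lis1 ko/cko, Lis1 ko/+ and mix-labelled Ndel1 ko/+, 3 for the step from E14 to P0 in Lis1 ko/+ and Lis1 ko/cko, and 1 from P0 to P14 in Lis1 ko/+. With the mean of both they were 7 for the difference of steps, 2 in P0 Ndel1 ko/cko, and 1 in P0 Lis1 ko/+, in the 3 P14 groups just named and for the step from E14 to P0 in Ndel1 ko/cko. Small shifts of a nonzero count are not listed. Among wild types, Mcph1 passed from E14 to P0 with the mean, at -0.08 (limma adjusted p = 0.0373). From P0 to P14 Cep63 passed with the mean at -0.42, with mixed B alone at -0.46 and with quantile normalization at -0.40 (limma adjusted p = 0.00203, 0.00530 and 0.0180). All these single-control calls in mutants are against the wild type on the other side of the first principal component; the cause was not tested.

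Without the 6 E14 arrays of low region markers 1 member, Aspm, was called in Lis1 ko/cko against ko/+. Over 78 runs that each left out 1 array, counts ran from 0 to 2 for mixed A against mixed B at P0, from 0 to 1 at P14, from 1 to 2 for the difference of steps (2 without P0 mixed A replicate 3) and from 6 to 8 from E14 to P0. For the same step in mutants they ran from 6 to 8 in Dcx ko/Y, where 9 were called with all arrays, from 8 to 10 in Lis1 ko/+, 9 to 10 in Lis1 ko/cko and 6 to 7 in Ndel1 ko/cko, and from 4 to 5 from P0 to P14 in Lis1 ko/+. The signal of Wdr62 and Cep135, of Stil after birth, and of Aspm and Cenpj at P14, near the low end of the arrays limits what can be shown for them.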

Other observations

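In the inbred wild type from P0 to P14, where 33.8% of tested genes were lower and 38% higher, further centrosome genes were called. Of other centriole assembly genes 14 of 18 were lower and 1 higher, with Cep44 at -1.55 ± 0.13, the cartwheel gene Sass6 at -1.52 ± 0.15 and Poc1b at -1.51 ± 0.12. Of pericentriolar material and gamma-tubulin genes 16 of 22 were lower and 3 higher. Subunits of augmin, the complex that branches spindle microtubules, were among them, with Haus7 at -1.73 ± 0.18, Haus8 at -1.46 ± 0.14 and Haus6 at -1.40 ± 0.13 on the log2 scale relative to the median gene. The anchor protein gene Akap9 changed by -1.68 ± 0.08. Of appendage and linker genes 9 of 21 were lower and 2 higher, led by Cep170, a marker of subdistal appendages, at -2.96 ± 0.11. The nuclear lamina gene Lmnb1 changed by -2.42 ± 0.10 and the condensin subunit Ncapd2 by -1.94 ± 0.26, while Cit rose by 2.59 ± 0.11. All named genes passed limma's test, with adjusted p of at most 9.8e-07.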
